A study of Homo sapiens with 34 samples.

Results

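LNCaP cells grown on tissue culture plastic in stripped serum were compared with LNCaP cells grown on plastic in control medium. The comparison holds 4 of the 34 samples of the series, 2 for each medium, chosen by the line, surface and medium that the labels give. LNCaP is an established human prostate cancer line from a lymph node metastasis, with the character of secretory prostate epithelium. Control medium was RPMI with 10% fetal bovine serum, and in the stripped medium the same share of serum had been treated with charcoal and dextran, which take out steroid hormones and other small lipophilic molecules. The protocol describes flasks split 1:3, kept for 4 days and fed once more on day 2 for both media. The labels of the plastic control libraries, however, read continuous culture, and those of the stripped libraries read day 4. A difference in time since plating between the 2 groups therefore cannot be told apart from the medium. Beside these, 6 LNCaP libraries from cells on amorphous calcium phosphate (ACP), a mineral coating, were used. They were grown for 4 days in control medium, in stripped medium, or in stripped medium with androgen at a labelled 100 mM, with 2 libraries each. The titles name this androgen DHT and the treatment labels testosterone. The 4 plastic libraries of MDAPCa2a, a line from a bone metastasis grown with 20% serum, gave the same serum comparison in another line. The fit of all 34 libraries also holds the ACP libraries of MDAPCa2a in stripped medium without and with androgen, and those of RWPE, a non-tumorigenic prostate epithelial line, and VCaP, a line from a bone metastasis. RWPE was grown on plastic in control medium and on ACP in control medium or with androgen, and VCaP on plastic in control and stripped medium and on ACP in control, stripped and androgen medium. Nothing states that replicates were separate cultures, so p-values measure the spread between replicate libraries over all groups of a fit, which may be technical. For the plastic comparison the fit held all 10 LNCaP libraries.

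Androgens enter prostate epithelial cells, bind a nuclear hormone receptor and switch on genes for secreted proteases, transporters, lipid enzymes and cofactors of their own signalling, while a smaller group of genes is held down. Serum stripping is the usual way to deprive a cultured line of androgen, but it also lowers other steroids, thyroid hormone, retinoids and lipids. ATF4, a transcription factor made when amino acids or protein folding run short, drives genes of amino acid import and synthesis and of stress signalling.

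Total counts were 44.8 M and 42.5 M in the plastic control libraries and 37.0 M and 17.1 M in the stripped libraries, within a range of 15.4 M to 44.8 M over the series. The correlation of log2 values between replicates was 0.994 in control and 0.984 in stripped medium, across genes. Markers of luminal prostate epithelium were high in all 4 libraries. Their sums, in CPM, the read counts scaled to TMM-normalised library size, were 11100 and 10900 in control and 6730 and 7130 in stripped medium. Of the 12 markers 3 were lower (25%, against 4.84% of all tested genes) and 0 higher, with a median log2 change of -0.08. These 3 were KLK3, TMPRSS2 and SLC45A3, which are also among the androgen-induced genes described below. Basal cell markers summed to between 31.9 and 51.3 CPM, and none of 6 tested was called, at log2 changes from -1.71 to 0.90. Transcripts that mark liver and antigen-presenting cells were present at low levels, more in the control libraries, and are described below. Genes listed for transcripts without a poly(A) tail summed to 272 and 212 CPM in control and 370 and 331 CPM in stripped medium. Most of each sum came from the histone genes HIST1H1C, HIST1H2BK and HIST1H2AC. Whether their transcripts lacked a tail in these cells was not tested, so the sums do not measure RNA without a tail. RMRP, the RNA of a ribonuclease complex, was the 1 called of 10 tested (10%, near the 9.45% called over all tested genes). The part of transcripts without a poly(A) tail in other results was not tested.

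In stripped serum 1385 of 14656 tested genes changed (9.45%), where the threshold was a Benjamini-Hochberg adjusted p of 0.05 in edgeR's quasi-likelihood test. Of these, 676 were higher (4.61%) and 709 were lower (4.84%) in stripped serum, and 763 differed by at least 1 on the log2 scale. The median log2 change over all tested genes was -0.01. Values of all 4 libraries fell into non-overlapping groups for 8768 genes (59.8%). The count of calls moved with the libraries used. It was 310 and 398 without control replicate 1 or 2, 399 without stripped replicate 1, and 1444 without stripped replicate 2, which had the lowest depth of the 4. In a fit of all 34 libraries 1133 genes were called, and the share of higher calls was 33.7% against 48.8% here. In bulk RNA, fewer cells of a kind and less of a transcript in each cell cannot be told apart.

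Of 37 genes known to be induced by androgens, all of which were tested, 29 were lower in stripped serum (78.4%, against 4.84% of all tested genes) and 0 were higher. Their median log2 change was -1.28. By role, 5 of 5 secreted proteins, 7 of 9 membrane proteins and transporters, 8 of 12 nuclear and signalling regulators and 9 of 11 enzymes and others were lower. Without 1 library in turn the count lay between 14 and 24.

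The kallikreins are secreted serine proteases of the seminal fluid. KLK3, which encodes prostate-specific antigen, stood at 2890 and 2890 CPM in control and at 137 and 136 CPM in stripped medium. Replicates were nearly equal within each medium and the media were far apart. This was a 21.2-fold fall (log2 change -4.41 ± 0.20 SE, adjusted p = 1.96e-06). KLK2, a protease that activates KLK3, stood at 91.1 and 110 CPM in control and at 7.13 and 8.32 CPM in stripped medium, a 13.1-fold fall (-3.71 ± 0.26 SE, adjusted p = 2.91e-05). KLK4 went from 206 and 211 to 46.6 and 38.8 CPM (-2.28 ± 0.20 SE, adjusted p = 0.000105). KLK15, a minor member of the cluster, went from 3.35 and 2.26 to 0.546 and 0.837 CPM (-2.07 ± 0.36 SE, adjusted p = 0.00502), and its call was lost without control replicate 1 (-1.75) or stripped replicate 1 (-1.75). AZGP1, a secreted zinc-binding glycoprotein, completed the secreted members. It went from 23.4 and 20.1 to 8.8 and 7.76 CPM (-1.39, adjusted p = 0.0469), and the call was lost without any 1 of the 4 libraries, at log2 changes from -1.50 to -1.27, and in the fit of all lines. The 4 kallikreins lie close together on chromosome 19 and share sequence, so reads between near-identical stretches may be split among them.

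KLK3 and KLK2 are shown by the bases before their start sites, because the 2 genes fell together and the sequences are closely alike there. Capitals mark GAACAGCAAGTGCT, a run shared by both that starts inside the hexamer described next and was picked after the sequences were seen. It begins 169 bases before the KLK3 start and 175 bases before the KLK2 start. The run occurs in 2 of 27305 RefSeq promoters of 300 bases, those of KLK3 and KLK2. The coordinates are of GRCh38.p14, whereas the counts were made on hg19.
KLK3, chr19:50854665-50854914, plus strand: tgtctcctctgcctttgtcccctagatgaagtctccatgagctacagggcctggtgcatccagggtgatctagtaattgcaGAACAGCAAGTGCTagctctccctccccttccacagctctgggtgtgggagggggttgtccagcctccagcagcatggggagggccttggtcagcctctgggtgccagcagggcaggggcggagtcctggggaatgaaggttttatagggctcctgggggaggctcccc
KLK2, chr19:50873189-50873438, plus strand: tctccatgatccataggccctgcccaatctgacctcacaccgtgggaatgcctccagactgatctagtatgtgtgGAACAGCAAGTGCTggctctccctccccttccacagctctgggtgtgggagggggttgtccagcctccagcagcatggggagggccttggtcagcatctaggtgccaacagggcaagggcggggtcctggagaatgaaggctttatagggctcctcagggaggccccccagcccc
The first letters of this stretch overlap AGAACA in KLK3, the hexamer of the androgen response element. AGAACA or its complement TGTTCT was present in 8.98% of the promoters of tested genes, in 8.33% of those of genes called lower (46 of 552) and in 12% of those called higher (65 of 542). Among the androgen-induced members with a promoter it was present in 3 of 29 (10.3%), KLK3, FKBP5 and PMEPA1. The full palindromic element, AGAACA and TGTTCT with 3 bases between them, was in 0 promoters of tested genes. These are letter matches within 300 bases of a start site, on both strands, and not binding data.

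**Figure D1:**
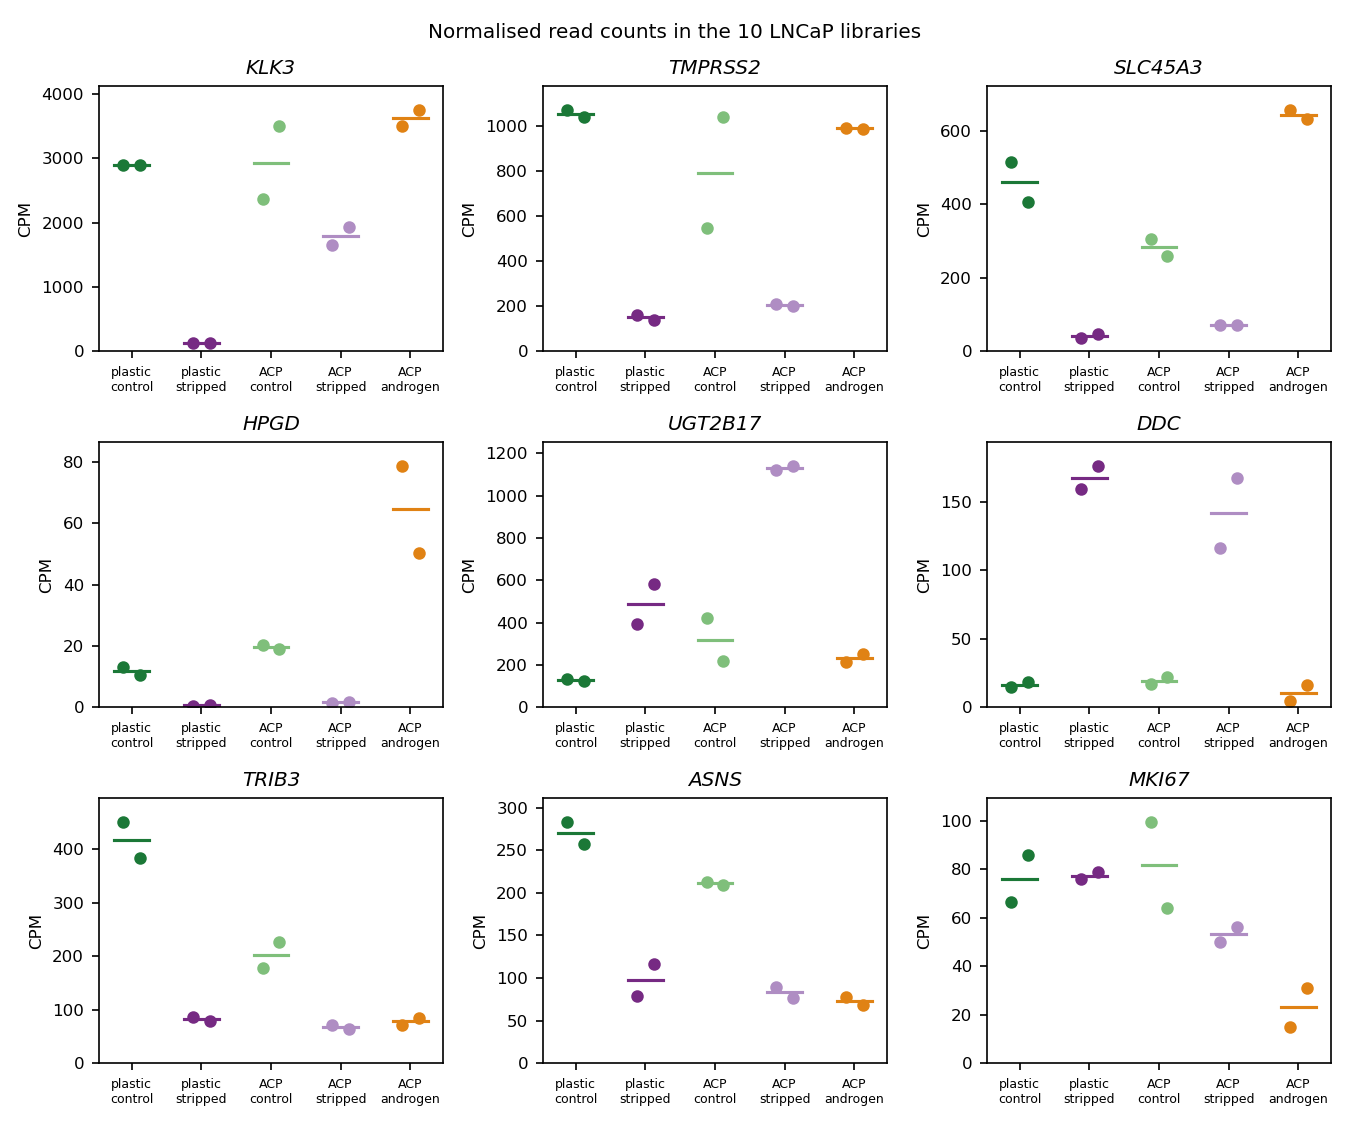
Expression of 9 genes in the 10 LNCaP libraries, in CPM on linear axes from 0, with each point a library and each line the mean of a group of 2. KLK3, TMPRSS2, SLC45A3, HPGD, TRIB3 and ASNS lie lower and UGT2B17 and DDC higher in the stripped than in the control libraries on plastic, whereas those of MKI67 overlap.

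Among the membrane proteins, TMPRSS2, a surface serine protease, was at 1070 and 1040 CPM in control and at 162 and 141 CPM in stripped medium (-2.79 ± 0.25 SE, adjusted p = 0.000135). SLC45A3, the sugar transporter prostein, went from 514 and 406 to 37.2 and 46.7 CPM (-3.46 ± 0.18 SE, adjusted p = 2.81e-06). The stripped libraries of both genes lay far below either control library. ABCC4, an exporter of cyclic nucleotides and prostaglandins, went from 342 and 354 to 118 and 129 CPM (-1.50 ± 0.16 SE, adjusted p = 0.00036). BMPR1B, a receptor for bone morphogenetic proteins, went from 38.8 and 33.3 to 3.04 and 4.35 CPM (-3.32 ± 0.29 SE, adjusted p = 0.000117). TRPM8, the cold-sensing calcium channel, was low in both media, at 5.18 and 5.7 against 0.364 and 0.614 CPM (-3.56 ± 0.39 SE, adjusted p = 0.000455). PMEPA1, a membrane adaptor that turns over signalling proteins, went from 191 and 155 to 33.8 and 38.1 CPM (-2.27, adjusted p = 0.0048), and its call was lost without stripped replicate 1. The metalloreductases STEAP2 (log2 change -0.16) and STEAP4 (-2.84, adjusted p = 0.112) did not pass the test.

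The median log2 change was -1.19 for the regulators, against -2.28 for the secreted and -2.79 for the membrane proteins. FKBP5, a cochaperone of steroid hormone receptors, went from 187 and 162 to 63.8 and 82.5 CPM (-1.26 ± 0.23 SE, adjusted p = 0.00719). Its groups did not overlap, but the call was lost without control replicate 1 (-1.15) or stripped replicate 1 (-1.09). LRIG1, a brake on growth factor receptors, went from 167 and 161 to 91.1 and 81.2 CPM (-0.93, adjusted p = 0.00164). ELL2, an elongation factor of RNA polymerase II, had a log2 change of -1.64 (adjusted p = 0.0207), ZBTB16, a zinc finger repressor, of -1.50 (adjusted p = 0.0132), and SPDEF, an epithelial ETS factor, of -0.69 (adjusted p = 0.00833). The call was lost for ELL2 without either control library or stripped replicate 1 (-1.95 to -1.38 over the 4 libraries left out in turn), for ZBTB16 without either control library or stripped replicate 2 (-2.00 to -1.15), and for SPDEF without either control library (-0.81 to -0.60) and in the fit of all lines. CAMKK2, EAF2, MAF and RHOU did not pass the test.

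Enzymes of the list included those of prostaglandin and sugar metabolism. HPGD, which inactivates prostaglandins, had 13 and 10.6 CPM in control and 0.573 and 0.893 CPM in stripped medium (-4.08 ± 0.32 SE, adjusted p = 6.12e-05). SORD, sorbitol dehydrogenase, went from 993 and 940 to 459 and 466 CPM, a log2 change of -1.06 (adjusted p = 0.0104), and its call was lost without either control library or stripped replicate 1 (-1.10 to -1.02). CENPN, a protein of the centromere, went from 475 and 366 to 54.5 and 70.5 CPM (-2.75 ± 0.19 SE, adjusted p = 2.91e-05). Stripped libraries were below control libraries in each of these 3 genes.

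Of 11 genes known to be repressed by androgens, 3 were higher and 1 was lower in stripped serum, beside 4.61% higher and 4.84% lower over all tested genes, and the median log2 change was 0.86. Higher were 2 enzymes that attach glucuronic acid to androgens. UGT2B15 was at 42.5 and 36.8 CPM in control and at 210 and 328 CPM in stripped medium (2.76 ± 0.37 SE, adjusted p = 0.00125). UGT2B17 was at 132 and 123 against 394 and 583 CPM (1.94 ± 0.27 SE, adjusted p = 0.00168), though its call was lost in the fit of all lines (1.88, adjusted p = 0.142). The UGT2B genes are near-identical copies, and how reads were divided among them is uncertain. ACKR3, a scavenging chemokine receptor, went from 126 and 153 to 316 and 250 CPM (1.02 ± 0.20 SE, adjusted p = 0.00841), with the call lost in the fit of all lines and without control or stripped replicate 1. CAMK2N1, an inhibitor of calmodulin kinase, had 184 and 202 against 418 and 507 CPM but did not pass the test (adjusted p = 0.157). FOLH1, prostate-specific membrane antigen, overlapped between the media, at 1960 and 1970 against 1950 and 2210 CPM. The lower member was NTS, the peptide neurotensin. It had 34 and 61 reads in control and 0 in both stripped libraries and was at least 19.8-fold lower against a floor of 3 counts over the group (adjusted p = 0.0152), a call lost with DESeq2 and without 3 of the 4 libraries in turn. On ACP in control medium NTS had 0 and 1 reads. In MDAPCa2a on plastic it went from 1.01 and 1.16 CPM in control to 0 and 0 CPM in stripped medium.

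Most proliferation genes did not pass the test. Of 56 cell cycle genes, 0 were higher and 2 were lower in stripped serum (3.57% called, against 9.45% of all tested genes), and the median log2 change was 0.07. Called by edgeR were 0 of 21 DNA replication and 0 of 22 mitosis genes, and 0 of either passed an unadjusted p of 0.05. The count over the list was 2 with DESeq2, 4 without the count filter and 7 in a fit of the 4 libraries alone. MKI67, the proliferation antigen Ki-67, had 66.3 and 85.9 CPM in control and 75.8 and 78.7 CPM in stripped medium (0.02, adjusted p = 0.978). MCM7, a subunit of the replicative helicase, had 202 and 244 against 270 and 247 CPM. Both stripped values of MKI67 lay between the control values, and those of MCM7 lay just above them. The genes that fell were BTG1, an antiproliferative gene, from 154 and 144 to 80.3 and 88.1 CPM (-0.83, adjusted p = 0.0137), and CDKN1A, the cyclin-dependent kinase inhibitor p21. The call of BTG1 was lost without either control library or stripped replicate 1 (-0.89 to -0.77) and in the fit of all lines. CDKN1A went from 337 and 344 to 162 and 154 CPM (-1.10, adjusted p = 0.0347), and its call was lost without any 1 of the 4 libraries. Expression of CCND1, the G1 cyclin D1, was 512 and 511 against 351 and 396 CPM and missed the threshold (-0.45, adjusted p = 0.156).

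Genes of fatty acid synthesis and elongation were lower, with 9 of 16 called lower and 0 higher (background 4.84% and 4.61%) and a median log2 change of -0.71. The count was 6 and 4 without control replicate 1 or 2, and 5 and 7 without stripped replicate 1 or 2. ELOVL5, an elongase of polyunsaturated fatty acids, went from 1500 and 1380 to 294 and 386 CPM (-2.08 ± 0.20 SE, adjusted p = 0.000248). ELOVL7, an elongase of saturated very long chains, went from 33.2 and 24.8 to 2.73 and 4.52 CPM (-3.04 ± 0.33 SE, adjusted p = 0.000429). SCD, which makes monounsaturated fatty acids, went from 1790 and 1960 to 704 and 852 CPM (-1.27 ± 0.19 SE, adjusted p = 0.00199). These 3 enzymes were named for the size of their falls among called genes, so their separation by medium is no finding. FASN, fatty acid synthase, went from 2620 and 3400 to 1560 and 1300 CPM (-1.07 ± 0.21 SE, adjusted p = 0.01), and its call was lost without control replicate 2 (-0.87), stripped replicate 1 (-1.23) or stripped replicate 2 (-0.94). SREBF1, the regulator of this pathway, and FADS2, a desaturase, did not pass the test.

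In cholesterol metabolism, 6 of 27 genes were lower and 2 higher (background 4.84% and 4.61%), with a median log2 change of -0.25. The count of 8 called genes fell to 4 without either control library and to 5 without stripped replicate 1, and was 10 without stripped replicate 2. The 2 that rose were both lipid exporters. ABCA1, which loads cholesterol onto apolipoproteins, was at 1.15 and 1.31 CPM in control and at 6.32 and 6.14 CPM in stripped medium (2.34 ± 0.31 SE, adjusted p = 0.0012). ABCG1, which exports cholesterol to high-density lipoprotein, was at 13.8 and 13.8 against 42.2 and 32 CPM (1.43 ± 0.22 SE, adjusted p = 0.00265). SREBF2, the regulator of cholesterol synthesis and uptake, went the other way, from 562 and 589 to 250 and 230 CPM (-1.26 ± 0.15 SE, adjusted p = 0.000574). Of 18 synthesis genes 3 were lower and 0 higher.

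The ATF4 pathway had the highest share of called members among the 12 lists. Of 20 genes of amino acid stress, 19 were lower in stripped serum (95%, against 4.84% of all tested genes), 0 were higher, and the median log2 change was -1.48. The count lay between 15 and 18 when any 1 library was left out. CHAC1, which degrades glutathione, went from 85.4 and 57.9 to 14.7 and 7.65 CPM (-2.66 ± 0.34 SE, adjusted p = 0.00108). TRIB3, a pseudokinase that restrains ATF4, went from 451 and 382 to 87.3 and 79.4 CPM (-2.32 ± 0.17 SE, adjusted p = 4.18e-05). ASNS, asparagine synthetase, went from 283 and 257 to 79.4 and 116.5 CPM (-1.46 ± 0.18 SE, adjusted p = 0.000925). CHAC1 and TRIB3 were named for the size of their falls and ASNS after its values were seen. Their separation by medium is therefore no finding. ATF4 went from 865 and 807 to 400 and 354 CPM (-1.15 ± 0.13 SE, adjusted p = 0.000561). SLC7A11, the cystine importer, went from 231 and 209 to 41.5 and 73.3 CPM (-1.94, adjusted p = 0.0131), and its call was lost without control replicate 1 (-1.87) or stripped replicate 1 (-1.60). PHGDH, the first enzyme of serine synthesis, was the member not called, at 675 and 704 against 615 and 553 CPM (-0.24, adjusted p = 0.422). In 17 of the 20 genes both plastic control libraries lay above all 8 other LNCaP libraries, those on ACP in control medium included. The same held for 3 of the 37 androgen-induced genes and for 1426 of all 14656 tested genes (9.73%). Whether the plastic control libraries stood apart for a reason other than serum was not tested.

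The promoters of 3 ATF4 pathway genes are shown because they hold the composite element bound by ATF4 and its partners, TGATGNAA, or its complement TTNCATCA, in capitals with 15 bases on either side. The motif was searched after the values were seen.
ASNS, chr7:97872454-97872491, minus strand, 68 bases before the start: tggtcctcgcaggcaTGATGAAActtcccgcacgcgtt
ATF3, chr1:212565201-212565238, plus strand, 191 bases before the start: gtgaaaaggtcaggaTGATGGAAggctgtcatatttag
CHAC1, chr15:40953247-40953284, plus strand, 209 bases before the start: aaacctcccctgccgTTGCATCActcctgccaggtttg
The motif was present in 4 of 17 promoters of the list (23.5%), these 3 and SLC3A2, in 5.8% of the promoters of genes called lower (32 of 552), in 2.03% of those called higher (11 of 542) and in 1.68% of those of tested genes. It was in 0 of the 29 androgen-induced promoters. A match of letters is a description and not a bound site.

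Secretory pathway genes, which fold and load proteins in the endoplasmic reticulum, were lower in 8 of 20 cases and higher in 0 (background 4.84% and 4.61%), with a median log2 change of -0.45. The count fell to 3 without either control library or stripped replicate 1 and was 7 without stripped replicate 2. PDIA5, a disulfide isomerase, went from 63.3 and 56.7 to 20.4 and 22.2 CPM (-1.50 ± 0.15 SE, adjusted p = 0.000255). DNAJB9, a cochaperone of the lumen, went from 30 and 40 to 12.8 and 14.6 CPM (-1.35, adjusted p = 0.00176). HERPUD1, a component of protein disposal, went from 232 and 211 to 95 and 112 CPM (-1.09, adjusted p = 0.000968). The 3 were named for the size of their falls among called genes, so their separation by medium is no finding. HSPA5, the main lumenal chaperone, had 1360 and 1220 against 859 and 1040 CPM and did not pass the test (-0.44), nor did the lectin chaperone CALR (0.17). Both plastic control libraries lay above all other LNCaP libraries for 8 of the 20 genes, against 9.73% of all tested genes.

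**Figure D2:**
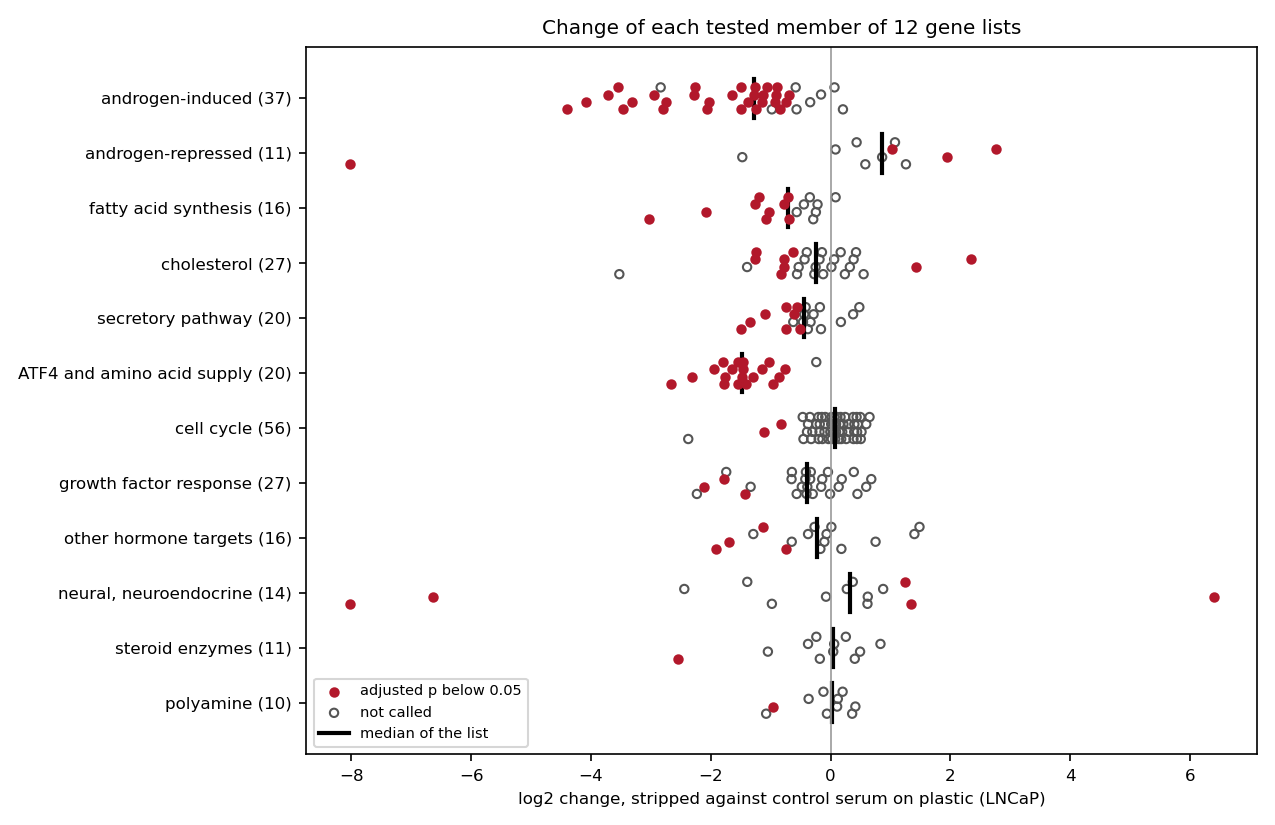
Log2 change in stripped against control medium on plastic for each tested member of 12 gene lists, with red points at an adjusted p below 0.05, open points not called and black marks at each list's median. Androgen-induced (median -1.28) and amino acid stress genes (-1.48) lie almost wholly below 0 and cell cycle genes around 0 (0.07), while the far left points of NTS and CHGA are fitted values of genes with 0 reads in stripped medium.

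Neural and neuroendocrine genes moved in both directions. Of 31 genes 14 had enough reads to be tested, 3 of these were higher and 2 lower (background 4.61% and 4.84%), and the median log2 change was 0.32. The count of 5 called genes fell to 1 without either control library or stripped replicate 1. PCSK1N, an inhibitor of prohormone processing, went from 17.9 and 13.7 to 47.8 and 32 CPM (1.34, adjusted p = 0.0135). TUBB3, a neuronal tubulin, went from 22.6 and 20 to 57 and 43.8 CPM (1.24, adjusted p = 0.0332). Both calls were lost without either control library or stripped replicate 1, at log2 changes of 1.01 to 1.60 for PCSK1N and 1.02 to 1.42 for TUBB3 over the libraries left out, and that of TUBB3 in the fit of all lines too. GRIK1, a kainate-type glutamate receptor, had 2 and 4 reads in control and 237 and 100 reads in stripped medium (6.39 ± 0.53 SE, adjusted p = 8.49e-05). CHGA, the granule protein chromogranin A, had 11 and 25 reads in control and 0 in both stripped libraries. It was at least 7.52-fold lower (adjusted p = 0.0263), a call lost without any 1 of the 4 libraries and in the fit of all lines.

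Targets of other hormones that stripping removes were mostly uncalled. Of 16 tested genes of glucocorticoid, estrogen, vitamin D, retinoid and thyroid hormone response, 4 were lower and 0 higher (background 4.84% and 4.61%), with a median log2 change of -0.22. TSC22D3, a glucocorticoid-induced leucine zipper protein, went from 173 and 168 to 59.3 and 45.4 CPM (-1.70 ± 0.32 SE, adjusted p = 0.00799), and DHRS3, a retinal reductase, fell by 1.91 on the log2 scale (adjusted p = 0.045). The call of DHRS3 was lost without any 1 library (-2.08 to -1.80) and that of TSC22D3 without any but control replicate 2 (-1.92 to -1.52), and the list then held between 0 and 1 calls. Growth factor response genes gave 3 lower and 0 higher of 27 tested (11.1% called, near the 9.45% of all tested genes), with a median of -0.39. IGF1R, the receptor of insulin-like growth factor 1, went from 28 and 27 to 5.99 and 6.7 CPM (-2.12 ± 0.23 SE, adjusted p = 0.000462). IRS2, an adaptor of that receptor, went from 15.4 and 13.3 to 5.13 and 5.53 CPM (-1.43, adjusted p = 0.0153), and its call was lost without any 1 of the libraries. Of 11 tested steroid-forming and steroid-converting enzymes 1 was lower (9.09%, near the 9.45% called over all tested genes), CYP11A1, which cuts the cholesterol side chain. It went from 6.01 and 5.64 to 1.41 and 0.391 CPM (-2.54, adjusted p = 0.0295), and its call was lost without any 1 of the libraries, at log2 changes from -3.90 to -2.05. Of 10 polyamine genes 1 was lower, again a share near that of all tested genes. It was AMD1, which makes the aminopropyl donor, with a log2 change of -0.96, a call lost in the fit of all lines and without either control library or stripped replicate 1 (-1.48 to -0.59).

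Genes outside the lists were named by the size of their change among those whose libraries did not overlap, so their separation by medium is no finding. The largest rises among genes that reached 5 CPM included PCDH11X, a protocadherin with a near-identical copy on the Y chromosome, which went from 0.234 and 0.272 to 4.94 and 6.08 CPM (4.42 ± 0.40 SE, adjusted p = 0.000153). TUBA1A, a tubulin abundant in neurons, went from 2.92 and 3.24 to 38.1 and 32 CPM (3.51 ± 0.21 SE, adjusted p = 9.37e-06). DDC, the decarboxylase that makes dopamine and serotonin, went from 14.6 and 18.4 to 159 and 176 CPM (3.34 ± 0.45 SE, adjusted p = 0.0013). ROR2, a receptor for noncanonical Wnt signals, went from 0.639 and 0.883 to 7.55 and 7.2 CPM (3.27, adjusted p = 0.000351). ABCG2, a drug exporter, went from 0.405 and 0.656 to 3.64 and 7.14 CPM (3.32, adjusted p = 0.000863). MID1, a microtubule-bound ubiquitin ligase, went from 1.83 and 1.7 to 17.8 and 20 CPM (3.42, adjusted p = 0.00333). AOC1, which oxidises histamine and polyamines, went from 2.62 and 2.24 to 50.3 and 39.8 CPM (4.21 ± 1.08 SE, adjusted p = 0.0333), and FEZF2, a transcription factor of the forebrain, from 1.36 and 0.498 to 12.4 and 7.42 CPM (3.41, adjusted p = 0.0192). The call of AOC1 was lost without any 1 library and that of FEZF2 without 3 of the 4, at log2 changes of 2.87 to 4.32 for FEZF2.

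Among the falls outside the lists, leaving aside genes that were also high in plastic control of the other lines, APOE, the lipid-carrying apolipoprotein E, changed most, from 12.6 and 9.35 to 0.156 and 0.223 CPM (-5.90 ± 0.82 SE, adjusted p = 0.00155). Its level on ACP in control medium was low too, at 0.0396 and 0.275 CPM. ST6GALNAC1, which sialylates mucin-type glycans, went from 28.3 and 23.3 to 1.35 and 1.45 CPM (-4.21 ± 0.26 SE, adjusted p = 9.37e-06). F5, coagulation factor V, went from 6.41 and 6.22 to 0.442 and 0.391 CPM (-3.89, adjusted p = 0.00036). MAK, a kinase of male germ cells, went from 4.94 and 5.3 to 0.286 and 0.614 CPM (-3.62, adjusted p = 0.000889). PDE2A, which degrades cyclic nucleotides, went from 8.46 and 8.31 to 0.52 and 0.837 CPM (-3.68, adjusted p = 0.00461), and S100P, a calcium-binding protein, from 30.8 and 30.3 to 2 and 2.34 CPM (-3.83 ± 0.69 SE, adjusted p = 0.00628). Both calls were lost without stripped replicate 1. On ACP in control medium PDE2A stood at 0.554 and 3.11 CPM. TARP, at 22.9 and 14.5 against 0.781 and 1.84 CPM (-3.98), lies within the T-cell receptor gamma locus, and its reads cannot be told apart from those of overlapping transcripts because the use of strand is not given in the sources used here.

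Libraries of control medium on plastic also held transcripts of tissues other than prostate. Of 11 tested liver markers 8 were lower in stripped serum (background 4.84%), with a sum over the list of 46.1 and 40.5 CPM in control and 20.3 and 21.8 CPM in stripped medium. The list summed to 15.1 and 14.5 CPM on ACP in control medium and to 49.4 and 58.1 CPM on ACP in stripped medium, and most of that was CPS1, the first urea cycle enzyme, at 46.3 and 53.5 CPM. Of the 14 markers 5 had 0 reads in both plastic stripped libraries. Over all 26336 gene symbols, 17452 had reads in stripped replicate 1 and 16277 in stripped replicate 2, so 0 reads were common. FGG, a fibrinogen chain, had 0 reads in both stripped libraries and was at least 47.2-fold lower on plastic (adjusted p = 0.00167). It had 0 reads in both libraries of ACP in control medium too. In MDAPCa2a on plastic FGG went from 2.38 and 1.41 CPM in control to 0 and 0 CPM in stripped medium. Antigen-presenting cell markers summed to 17.1 and 22.2 CPM in control and 4.84 and 8.99 CPM in stripped medium. Lower were 3 of 4 tested, and 6 of 12 were at 0 in both stripped libraries. The other tested marker, HLA-DRA, was not called, at 2.64 and 6.61 against 3.38 and 8.04 CPM. CD74, the invariant chain of antigen presentation, was the largest part of the control sums, at 10.6 and 10.4 CPM (497 and 458 reads). It had 0 reads in both stripped libraries and was at least 197-fold lower (adjusted p = 0.00239). Fibroblast and muscle markers summed to 60.4 and 52.9 against 58.6 and 57.7 CPM, with 2 of 8 tested lower. In RWPE, VCaP and MDAPCa2a, 419 of the tested genes (2.86%) were likewise higher in both plastic control libraries than in every other library of each line. Of the 709 genes lower in stripped serum, 52 belonged to these (7.33%), CD74 among them, and of the 676 higher genes 0 did. STC2, a secreted glycoprotein hormone, was another, at 283 and 278 against 90.6 and 76.2 CPM, as was SLC6A9, a glycine transporter, at 129 and 127 against 38.5 and 27.8 CPM. Without the genes of that set 1333 genes were called. The set held 6 of the 11 tested liver markers, beside 2.86% of all tested genes. Both plastic control libraries lay above all other LNCaP libraries for 331 of the 709 lower genes (46.7%, against 9.73% of all tested genes). They lay below them for 364 of the 676 higher genes (53.8%, against 9.47%). Genes were called for a difference from the 2 plastic stripped libraries, so part of these shares is built in. The part of a difference between plastic control libraries and all others in these counts was not tested.

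On ACP the same change of serum gave 787 called genes (5.37%), 481 of them higher (3.28%) and 306 lower (2.09%). This count was 191 or 216 without ACP stripped replicate 1 or 2. The plastic and ACP comparisons share no library. Of the 709 genes lower on plastic 215 were also lower on ACP, which is 30.3% of the plastic list and 70.3% of the ACP list, and 8 were higher on ACP. Of the 676 genes higher on plastic 194 were also higher on ACP, 28.7% and 40.3% of the lists, and 0 were lower. Of the androgen-induced genes 11 of 37 were lower on ACP and 1 was higher, with a median of -0.69. Of the amino acid stress genes 15 of 20 were lower on ACP, with a median of -1.21. Of the 56 cell cycle genes 1 was called on ACP, higher, but their median there was -0.45, 52 lay below 0, and 7 were lower at an unadjusted p of 0.05. TMPRSS2 differed by -1.95 (adjusted p = 0.00117) and HPGD by -3.65 (adjusted p = 0.000106) on ACP, while KLK3 differed by -0.70 (adjusted p = 0.0412). KLK3 was at 2370 and 3500 CPM in control and at 1660 and 1940 CPM in stripped medium on ACP. These stripped values lay more than an order of magnitude above those on plastic. TRIB3 differed by -1.57 on ACP and ABCA1 by 2.37 (adjusted p = 0.00185).

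The difference between the 2 serum effects was tested as an interaction. It was called for 45 of 14656 genes (0.307%), of which 44 had the lower change on plastic (0.3%) and 1 the higher (0.00682%), RBMXL2, an RNA-binding protein (4.60, adjusted p = 0.037). The count was 11 without plastic stripped replicate 1, between 23 and 30 without 1 of the other plastic or the ACP stripped libraries, and, for the ACP control libraries, 46 with replicate 1 left out and 148 with replicate 2 left out. With DESeq2 it was 209, of which 13.4% were higher on plastic, and 15.5% of the 148 were higher. Only the plastic control among the LNCaP groups is labelled continuous culture. Time since plating therefore cannot be told apart from the surface in this difference. Of the androgen-induced genes 7 of 37 were called, all with the lower change on plastic, and of the amino acid stress genes 0 of 20 were by edgeR (4 at an unadjusted p of 0.05). For KLK3 the change on plastic was lower by 3.70 on the log2 scale (interaction -3.70, adjusted p = 0.000171). KLK4 differed by -2.80 (adjusted p = 0.00116), CENPN by -3.12 (adjusted p = 0.000485) and BMPR1B by -2.73 (adjusted p = 0.00935), the last lost without plastic stripped replicate 1 or ACP stripped replicate 2 (-3.17 to -2.41 over the libraries left out). For KLK2 the interaction was -2.74 (adjusted p = 0.00469) and was lost without plastic stripped replicate 1 (-2.62, adjusted p = 0.0711). CD55, an inhibitor of complement, went in opposite directions. It fell from 13.5 and 10.8 to 1.17 and 1.17 CPM on plastic and rose from 1.9 and 5.2 to 17.6 and 18.9 CPM on ACP (interaction -5.73 ± 0.52 SE, adjusted p = 0.000906).

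Androgen added to stripped medium was measured on ACP only, against the ACP stripped libraries, which the ACP serum comparison also uses. It changed 1133 genes (7.73%), 552 of them higher (3.77%) and 581 lower (3.96%). Without 1 of the ACP stripped libraries or androgen replicate 1 the count was between 201 and 366, and without androgen replicate 2 it was 1771. None of its libraries enters the plastic comparison. Of the 709 genes lower on plastic in stripped serum, 203 were higher with androgen, 28.6% of the plastic list and 36.8% of the androgen list, and 6 were lower. Of the 676 genes higher on plastic, 182 were lower with androgen, 26.9% and 31.3%, and 3 were higher. Of the androgen-induced genes 30 of 37 rose with androgen (median 1.51) and 0 fell, and 26 of them were also among those lower on plastic. KLK3 rose by 1.01 (adjusted p = 0.00722), to 3510 and 3750 CPM, SLC45A3 by 3.16 (adjusted p = 7.28e-06) and HPGD by 5.36 on the log2 scale (adjusted p = 7.28e-06). ELOVL5 rose by 3.20 and IGF1R by 2.52. DDC, higher in stripped serum on plastic, fell by 3.75, and UGT2B15 fell by 1.89 (adjusted p = 0.0106).

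The lists separated under androgen. Of the 20 amino acid stress genes 0 were higher and 2 lower with androgen, with a median of -0.18, and TRIB3 differed by 0.20 (adjusted p = 0.492). ATF4 fell by 0.63 (adjusted p = 0.0172). Of the 56 cell cycle genes 30 were lower with androgen and 0 higher, with a median of -1.18, whereas the plastic serum comparison called 2. Of the 16 fatty acid genes 9 were higher with androgen and 0 lower, and of 27 cholesterol genes 12 were higher and 2 lower.

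**Figure D3:**
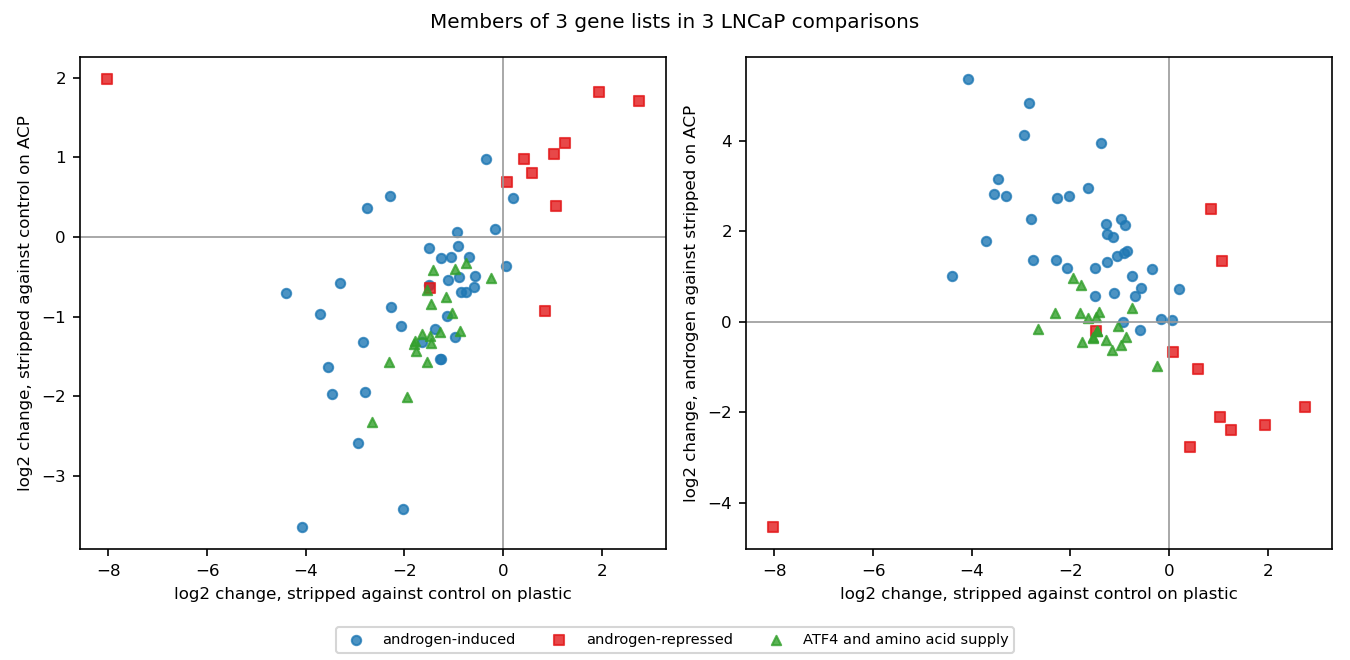
Log2 change on plastic (x axis) of androgen-induced, androgen-repressed and amino acid stress genes against their log2 change in stripped serum on ACP and against their log2 change with androgen on ACP (y axes), with each point a gene. Amino acid stress genes lie below 0 on both serum axes and on either side of 0 with androgen (8 of 20 above), with medians of -1.48, -1.21 and -0.18, and androgen-induced genes rise with androgen, with a median of 1.51.

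In MDAPCa2a the same comparison of stripped with control medium on plastic called 393 of 17323 genes (2.27%) in a fit of all lines, 161 higher (0.929%) and 232 lower (1.34%). Of the 37 androgen-induced genes 5 were higher and 0 lower, with a median of 0.57. KLK3 was not among these and did not pass the test in MDAPCa2a. It was at 5350 and 5560 CPM in MDAPCa2a control and at 7500 and 8670 CPM in stripped medium, the opposite order to LNCaP. FKBP5 was higher by 2.06 in MDAPCa2a stripped medium (adjusted p = 0.000485). The serum effect itself differed between the lines for 313 genes (1.81%), with 110 higher (0.635%) and 203 lower (1.17%) in LNCaP, a test that uses the LNCaP plastic libraries again. The count lay between 151 and 218 without any 1 of the 8 libraries. Among the androgen-induced genes 23 of 37 differed, all lower in LNCaP. KLK3 differed by -5.02 (adjusted p = 0.000306), HPGD by -5.78 and FKBP5 by -3.37 (adjusted p = 1.93e-05). ELOVL5 differed by -3.33 (adjusted p = 7.68e-07) and IGF1R by -3.72 (adjusted p = 2.61e-05). Of the 20 amino acid stress genes 0 differed between the lines by edgeR, and 0 did so at an unadjusted p of 0.05. Their median in MDAPCa2a was -1.09, and 2 were called lower there (17 at an unadjusted p of 0.05). ATF4 differed from control by -0.91 (adjusted p = 0.0398) and ASNS by -1.36 (adjusted p = 0.0308) in MDAPCa2a. The lines also differed in basal medium, serum share and coating of the plastic, which cannot be told apart from the line. As in LNCaP, the MDAPCa2a plastic control libraries have no labelled day, whereas the stripped ones read day 4. Time since plating therefore cannot be told apart from the medium in MDAPCa2a either.

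**Figure D4:**
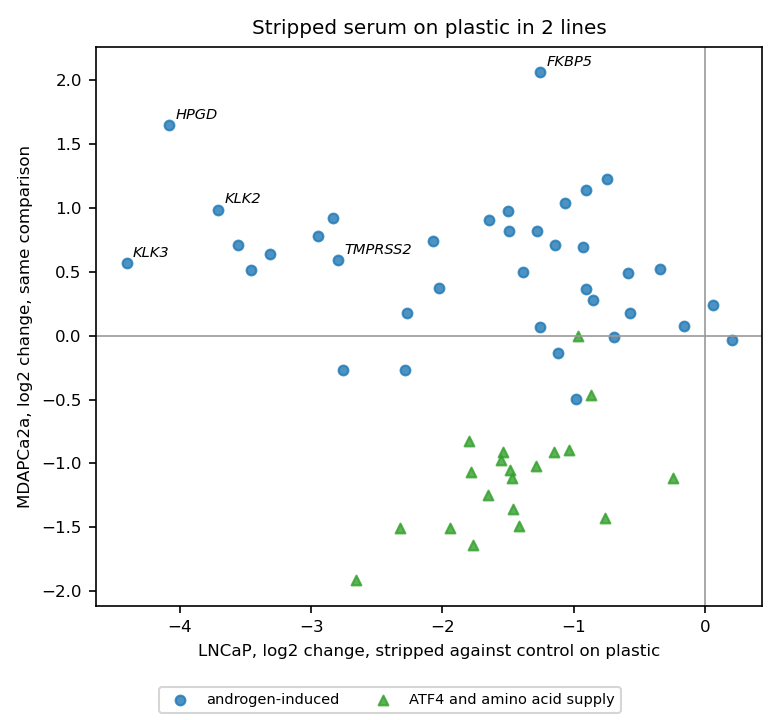
Log2 change in stripped against control medium on plastic in LNCaP (x axis) and MDAPCa2a (y axis) for androgen-induced and amino acid stress genes, with each point a gene. Amino acid stress genes lie below 0 in both lines (medians -1.48 and -1.09), whereas androgen-induced genes have medians of -1.28 in LNCaP and 0.57 in MDAPCa2a.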

How the data were processed

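RNA from 34 samples was sequenced after poly(A) selection, per the labels' protocols. The authors deposited 1 table of raw read counts for 26336 gene symbols. STAR, HTSeq and hg19 are named in the submitters' processing notes. Annotation and strand setting: not given in the sources used here. Members and gene lists were chosen with earlier results of these data known.

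The 10 LNCaP libraries were fitted together with edgeR 4.0.16 (TMM scaling, a quasi-likelihood F test, Benjamini-Hochberg adjusted p below 0.05, filterByExpr at a minimum count of 10; R 4.3.3), with 5 residual degrees of freedom and a biological coefficient of variation of 16.8%. The comparison of lines used a fit of all 34 libraries with 17 residual degrees of freedom and 17323 genes. CPM use the TMM sizes of the LNCaP fit for LNCaP and of the fit of all lines for MDAPCa2a. Standard errors are the log2 change divided by the square root of F. The limit that a count of 0 allows was taken as 3 counts over a group and covers counting error only. Promoter sequences are from RefSeq, GRCh38.p14.

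Genes were named by these rules. On plastic, the 10 largest rises and falls whose libraries did not overlap and whose higher group averaged 5 CPM or more were eligible, with up to 5 falls that are also high in plastic control of the other lines named apart. All androgen-induced and androgen-repressed genes were eligible, and of other lists up to 3 called genes in each direction and 2 uncalled genes with the highest level. Of each difference of effects, the 5 largest in each direction were eligible. ATF4, ASNS, FASN, MKI67, the marker genes, genes with 0 reads in stripped medium and genes called in opposite directions on the 2 surfaces were chosen after their values were seen. Some genes are not reported here, though counts include them.

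Alternatives were RLE factors, no count filter, DESeq2 1.42.0, a replicate block, a fit of the 4 libraries, a fit of all lines, an absolute log2 change of at least 1, each library left out, and removal of genes high in plastic control of the other lines or under 0.5% of another line's level. Chosen after seeing the data were lowess offsets (span 0.3) on GC content and length (92.9% of genes matched) and removal of genes low in plastic control of the other lines. On simulated counts for the plastic comparison, 64.0% of 200 genes changed by 1 on the log2 scale (14635 genes tested) and 100% of 200 changed by 2 (14618 tested) were recovered. For the difference of surfaces these were 10.0% (14453 tested) and 98.5% (14463 tested), and for that of lines 10.0% (17230 tested) and 96.5% (17246 tested). False calls numbered 8 and 11 on plastic, 1 and 13 for surfaces and 0 and 6 for lines. The changed genes were drawn from well-expressed genes only, and all genes were given the same dispersion. Recovery of low or more variable genes was therefore not measured.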

Additional observations from a re-analysis of the deposited data

Results flagged for a closer look

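The serum effect differed between plastic and ACP for 45 genes by a test of the interaction, 7 of them androgen-induced. A different time since plating of the plastic control libraries cannot be told apart from the surface here. The differences on the log2 scale, plastic minus ACP, were -6.30 for S100P, -5.73 for CD55, -4.36 for AGR2, a disulfide isomerase of secretory epithelia, -4.08 for TARP, -3.70 for KLK3, -3.12 for CENPN, -2.80 for KLK4, -2.74 for KLK2, -2.73 for BMPR1B, -1.48 for SLC45A3 and -1.36 for ABCC4. The calls of AGR2 (-4.12) and KLK2 (-2.62) were lost without plastic stripped replicate 1, that of S100P without either plastic stripped library, that of SLC45A3 without 4 libraries in turn (-1.65 to -1.30 over all) and that of ABCC4 without 7 (-1.58 to -1.17). That of BMPR1B was lost without plastic stripped replicate 1 or ACP stripped replicate 2 (-3.17 to -2.41).

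Between LNCaP and MDAPCa2a the serum effect on plastic differed for 313 genes, 23 of them androgen-induced. The differences, LNCaP minus MDAPCa2a, were -9.40 for CYP11A1, -6.69 for PGC, -5.78 for HPGD, -5.38 for APOE, -5.22 for MAK and -5.02 for KLK3, and 5.79 for PTPRR, 5.42 for DDC, 5.33 for HPR and 4.49 for VIM. PGC, the stomach protease precursor progastricsin, had 8.78 and 7.4 CPM in LNCaP control and 1.17 and 0.446 CPM in stripped medium, against 37.3 and 54.1 and then 703 and 320 CPM in MDAPCa2a. DDC had 137 and 124 CPM in MDAPCa2a control and 24 and 35.9 CPM in stripped medium, the opposite order to LNCaP. The call of APOE was lost without LNCaP stripped replicate 1 (-5.78 to -5.07 over the libraries left out). That of PTPRR was lost without either LNCaP control library or MDAPCa2a stripped replicate 1 (4.74 to 8.97), and that of HPR without MDAPCa2a control replicate 1 or stripped replicate 1 (4.36 to 7.67). In MDAPCa2a stripped medium PTPRR had 0 and 0.0807 CPM and HPR 0 and 0.0404 CPM, so the fitted size of both differences depends on the prior count. CYP11A1 had 0.0893 and 0.248 CPM in MDAPCa2a control medium, and MAK had 0.179 to 1.05 CPM in the MDAPCa2a plastic libraries. The size of these 2 differences therefore rests on values near the floor.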

How the results depend on the processing

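Of the counts recomputed under alternatives, 127 stayed within 1.5 times the reported count and 84 did not. Among single-gene values, 1364 of 1560 alternatives kept direction and call, 149 lost the call, 31 gained one and 16 changed sign. Calls on plastic numbered 2193 without the count filter, 2411 in the fit of the 4 libraries and 763 with a log2 change of at least 1, against 1385. On ACP they were 1732 without the filter and 1331 with DESeq2 (787 reported), for androgen 2028 and 1759 (1133), for the surface difference 338 and 209 (45), for genes called alike on both surfaces 796 and 642 (409), and for the difference of lines 503 with DESeq2 (313). Without the filter the called members were 8 of the androgen-repressed, 4 of the cell cycle, 9 of the neural, 5 of the growth factor and 2 of the polyamine list. In the fit of the 4 libraries they were 7 androgen-repressed, 7 cell cycle, 8 neural, 6 growth factor, 2 steroid enzyme and 2 polyamine genes. In the fit of all lines 2 androgen-repressed and 0 polyamine genes were called, and with DESeq2 2 polyamine genes. Leaving out 1 library gave 310 to 1444 calls on plastic, 191 to 771 on ACP, 201 to 1771 for androgen, 11 to 148 for surfaces, 119 to 431 on both surfaces and 151 to 218 for lines. By list it gave 15 to 18 amino acid stress, 14 to 24 androgen-induced, 2 to 4 androgen-repressed, 0 to 1 cell cycle, 4 to 10 cholesterol, 4 to 7 fatty acid, 2 to 2 growth factor, 1 to 4 neural, 0 to 1 other hormone, 0 to 2 polyamine, 3 to 7 secretory and 0 to 0 steroid enzyme genes. A lone library was then assumed to vary like the other groups, and the cause of these changes was not tested.

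The labels give replicate numbers 1 and 2 in each group, but deviations of same-numbered plastic libraries correlated at -0.003 across genes, so the numbers were not taken as pairs. With the replicate block, 1536 genes were called on plastic, 458 on both surfaces, 51 for the surface difference and 300 for the difference of lines.

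The sign changed only in genes that did not pass the test. With GC content and length offsets STEAP2 was 0.0066, FDPS -0.056, HSD17B4 0.00039 and MKI67 -0.043. In the fit of all lines SRD5A3 was -0.0067 and MKI67 -0.028. Without 1 library in turn the range of the log2 change was -0.50 to 0.11 for STEAP2, -0.096 to 0.20 for NCAPD3, -0.0067 to 0.15 for FOLH1, -0.018 to 0.12 for FDPS, -0.38 to 0.0015 for CTSD, -0.44 to 0.068 for JUN, -0.36 to 0.041 for IER2, -0.084 to 0.27 for ODC1 and -0.15 to 0.22 for MKI67.

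Depth limits low genes most in stripped replicate 2. Changes near 1 on the log2 scale are detectable on plastic for a part of genes only, and for differences between surfaces or lines for few.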

Other observations

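Of the 709 genes lower on plastic in stripped serum, 35 had 0 reads in both stripped libraries, and several belong to liver or lymphoid tissue in textbooks. GC, the vitamin D carrier of plasma, had 142 and 115 reads in control medium and was at least 52.9-fold lower (edgeR adjusted p = 0.00367). FGB, a fibrinogen chain, was at least 24.5-fold lower and SERPINC1, antithrombin, at least 20.3-fold lower. FGB had 0 reads in both LNCaP libraries of ACP in control medium as well. The lymphoid regulator IRF4, with 44 and 28 reads, was at least 14.8-fold lower and MIR155HG, the host transcript of a lymphoid microRNA, at least 25.1-fold lower. These bounds use a floor of 3 counts over the group.

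Of the genes lower on plastic, 8 were called higher in stripped serum on ACP. SMOC1, a matrix protein that binds calcium, differed by -3.18 on plastic and 4.10 on ACP. NFKBIZ, a regulator of NF-kappaB targets, differed by -1.07 and 4.06. FN1, fibronectin, differed by -1.30 on plastic and 1.30 on ACP, and PDE4B, a cyclic AMP phosphodiesterase, by -3.24 and 1.95. The interaction was called by edgeR for these 4, with adjusted p from 0.000435 to 0.0383.

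Of the 709 lower genes, 99 were also lower on ACP and raised by androgen, and 390 were in neither set. Of the 676 higher genes, 105 were also higher on ACP and lowered by androgen, and 405 were in neither set. The ACP serum and androgen comparisons share the ACP stripped libraries.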
